A study of Mus musculus with 6 samples.

Results

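The subject is the transcript of Tnf, the gene of the cytokine tumour necrosis factor, in mouse bone marrow-derived macrophages with and without lipopolysaccharide (LPS). It was taken as the single row with the Ensembl transcript identifier ENSMUST00000025263_at, 1 of 74007 transcript rows, each holding a log2 expression value for every array. The rule names this row as Tnf, and no other row could be given a gene name. Its 6 values were shared with no other row.

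Marrow from the femurs of female C57BL/6J mice aged 8 to 12 weeks, fed normal chow, was cultured with rhM-CSF, the human form of macrophage colony-stimulating factor made by recombinant means, at 50 ng/mL. The cells were replated on day 6. On day 7, 3 cultures received LPS at 10 ng/mL and RNA was taken after 4 h, while 3 stayed unstimulated. All cultures of both groups carried the rhM-CSF. Per the series text, the cells of each of the 3 animals were split between both groups, and each culture gave 1 Affymetrix Mouse Exon 1.0 ST array. The cells were thus an in vitro population grown with a human growth factor, sampled at a single dose and time. The labelled cell type could not be checked against marker genes, because the rows could not be named. Between fewer cells of a type and less RNA per cell, bulk arrays cannot tell.

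Tumour necrosis factor is made as a membrane-bound precursor, which the protease ADAM17 cuts to release the soluble trimer. It acts through the receptors TNFR1 and TNFR2, which lead to NF-kappaB and MAP kinase signalling and, through TNFR1, can lead to cell death. In macrophages the gene is an early target of TLR4, the receptor of LPS, and its mRNA is short-lived because of an AU-rich element in its 3' untranslated region. In the RefSeq gene order of the GRCm38.p6 assembly, Tnf lies on chromosome 17 between Ltb and Lta, which encode the lymphotoxins, with the miRNA gene Mir6973a between Ltb and Tnf. No values can be given for these neighbours, nor for the receptors, protease, RNA-binding proteins and NF-kappaB feedback genes of the pathway, since their rows carry no names here.

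The 250 bases before the RefSeq start of Tnf are shown because they are the regulatory stretch just upstream of the induced gene. They lie at chr17:35202008-35202257 on the minus strand of GRCm38.p6 and are credited to RefSeq. Capitals mark a match to the loose NF-kappaB motif and a match to the TATA box.
Tnf promoter: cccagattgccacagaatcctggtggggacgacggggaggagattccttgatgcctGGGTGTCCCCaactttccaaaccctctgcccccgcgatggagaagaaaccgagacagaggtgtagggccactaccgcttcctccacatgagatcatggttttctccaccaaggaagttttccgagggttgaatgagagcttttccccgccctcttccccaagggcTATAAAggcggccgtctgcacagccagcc
The NF-kappaB motif was searched as GGGNNNNNCC on both strands. It matched at 1 place, bases -194 to -185, which fits on both strands. Base -1 is the last base before the start. Of 32851 RefSeq promoters of the same length, 45.8% held a match to these loose letters, so a match is common. The TATA box, TATAAA, matched at bases -29 to -24, and 12.4% of the promoters held it. The GC box GGGCGG, bound by Sp1, matched at bases -49 to -44 on the opposite strand, against 32.7% of promoters with a match. The core GGAAG of the ETS family matched at 3 places and the NFAT core GGAAA at 3. At least 1 match was held by 64.1% and 55.6% of promoters, and promoters with 3 matches were not counted. Neither of these cores overlapped the NF-kappaB or TATA match. The AP-1 site TGANTCA, the cyclic AMP response element TGACGTCA and its variant TGAGCTCA have no exact match in this window. Inexact matches were not searched. The window holds TGAGATCA, which differs from TGAGCTCA at 1 base. The arrays measured the transcript and not binding, so these matches are a description of the letters.

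Tnf rose with LPS in all 3 same-numbered pairs of cultures. The unstimulated arrays 1, 2 and 3 read 8.42, 9.72 and 9.75 on the log2 scale. The LPS arrays 1, 2 and 3 read 12.7, 12.9 and 12.8. The groups did not overlap: the lowest LPS array lay 2.92 above the highest unstimulated array, or 7.56-fold. On the linear scale the unstimulated signals were 342, 841 and 863, and the LPS signals were 6527, 7645 and 7044.

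**Figure D1:**
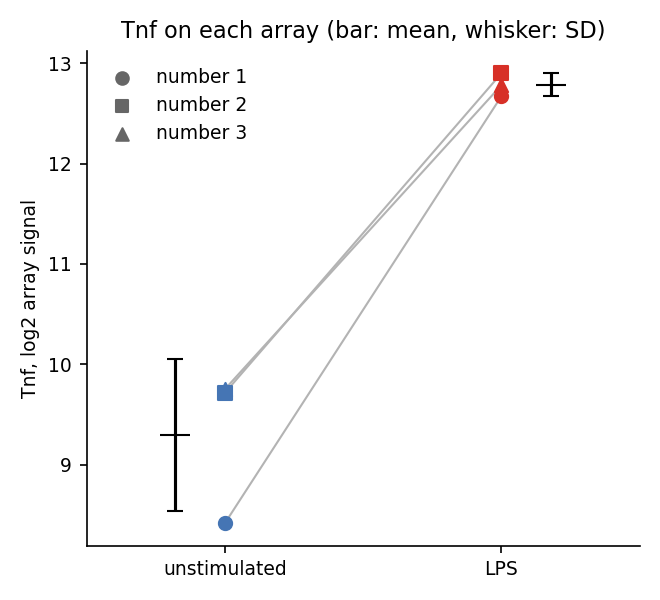
Log2 array signal of Tnf (vertical axis) in the unstimulated and LPS groups, with 1 point per array, a symbol per array number, grey lines joining same-numbered arrays, and the mean and SD of each group beside the points. The LPS arrays lie between 12.7 and 12.9, and unstimulated array 1, at 8.42, lies well below the other unstimulated arrays, at 9.72 and 9.75.

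The mean log2 signal of Tnf was 9.30 ± 0.76 in unstimulated cultures and 12.8 ± 0.11 after LPS (SD over 3 arrays in each group). The difference was 3.49, with a limma standard error (SE) of 0.35 and a 95% interval from 2.65 to 4.33. This is 11.2-fold with an interval from 6.29-fold to 20.1-fold (limma, Benjamini-Hochberg adjusted p = 0.000511 over all rows). The SE and interval take a single variance for both groups, whose SDs were 0.76 and 0.11. That variance is shrunk toward those of all rows. No interval with separate variances was computed. The fit also leaves out the pairing by animal. With the array number as a block the interval was 2.82 to 4.15, and 26284 rows were called, against 23667 without it. Of the 74007 rows, 32.0% were called in either direction, 8.75% were called higher with LPS, and 3.00% were called and at least 2-fold higher. The share called higher depended on scaling. As deposited, 6472 of 23667 calls were higher, against 23708 of 35595 with each array centred on its median. Under quantile normalization, cyclic loess and centring on the rows above the median level, the rows called higher numbered between 9768 and 11466. Rows called and at least 2-fold higher numbered 2222 as deposited and between 2424 and 2680 under these scalings. Against a null of 2-fold, Tnf also passed (limma's treat, adjusted p = 0.00898). An exact permutation test on the Tnf values gave p = 0.1 (two-sided, higher in 3 of 3 LPS arrays), the smallest that 3 against 3 arrays allow. With the pairs kept, the exact sign-flip test gave p = 0.25, the smallest that 3 pairs allow.

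The size of the rise differed between pairs of cultures. Within number 1 it was 4.25 on the log2 scale, or 19.1-fold. Within numbers 2 and 3 it was 3.18 and 3.03, or 9.09-fold and 8.16-fold. The larger value in number 1 came with the low unstimulated array 1, since LPS array 1 was the lowest of the LPS arrays. Without unstimulated array 1 the difference was 3.05, or 8.28-fold, and its 95% interval narrowed to 2.84 to 3.26 (limma adjusted p = 3.23e-05). The narrowing follows from dropping the array that lay apart, and leaves only unstimulated arrays 2 and 3 in that group. The fold changes hold for the deposited scale, whose background level is not given in the sources used here.

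Among all rows ordered by the difference of group means, Tnf was at place 180 of 74007, and 0.242% of rows had a larger rise. Rows called at least 8-fold higher numbered 263, and Tnf was among them. Rows called at least 16-fold higher numbered 78, and Tnf was not among these. A gene can hold several rows, so the place counts transcript rows and not genes.

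**Figure D2:**
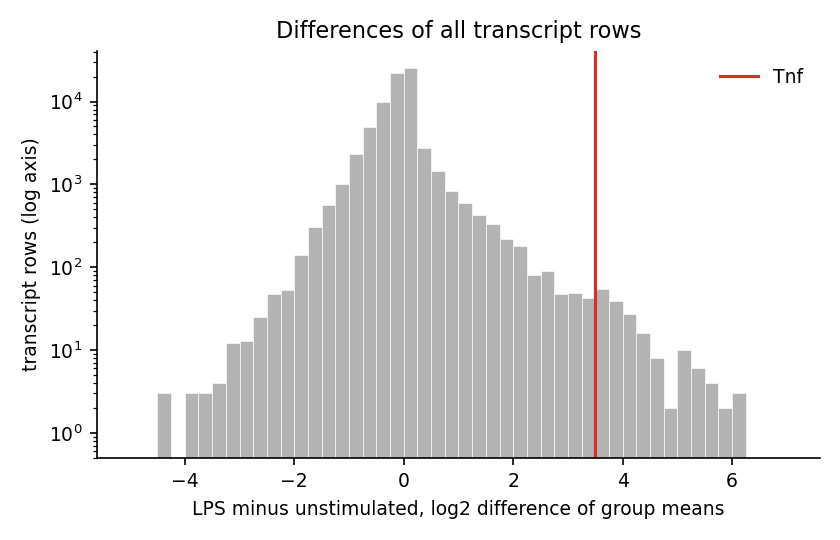
Number of transcript rows (vertical log axis) in bins of the log2 difference between LPS and unstimulated group means (horizontal axis), with a line at Tnf. Tnf, at 3.49, lies in the right tail, with 0.242% of rows beyond it.

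The middle of the value distribution was lower in the LPS arrays, with a difference of -0.15 between the mean array medians. The median of the differences of single rows was -0.022, so the typical row did not move by that much. With each array centred on its median the Tnf difference was 3.64, or 12.5-fold (limma adjusted p = 0.000374). The place of Tnf among the rises stayed at 180 under that centring, which moves every row alike.

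The unstimulated level of Tnf varied more between arrays than that of most rows. Its SD between unstimulated arrays was 0.76, against a median of 0.0782 over all rows, and 38 of the 74007 rows had a larger one. Most of this spread was the gap of 1.30, or 2.46-fold, between array 1 and the nearer of the others, while arrays 2 and 3 differed by 0.037. With LPS the SD of Tnf was 0.11, against a median of 0.0940 over all rows, and 40.5% of rows had a larger one. Among the 3168 rows whose mean over all arrays lay within 0.5 of that of Tnf, the median unstimulated SD was 0.128 and 5 rows exceeded Tnf. In the same rows the median LPS SD was 0.156, and 69.8% of them exceeded the LPS SD of Tnf. The 2 SDs of Tnf were not compared by a test.

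**Figure D3:**
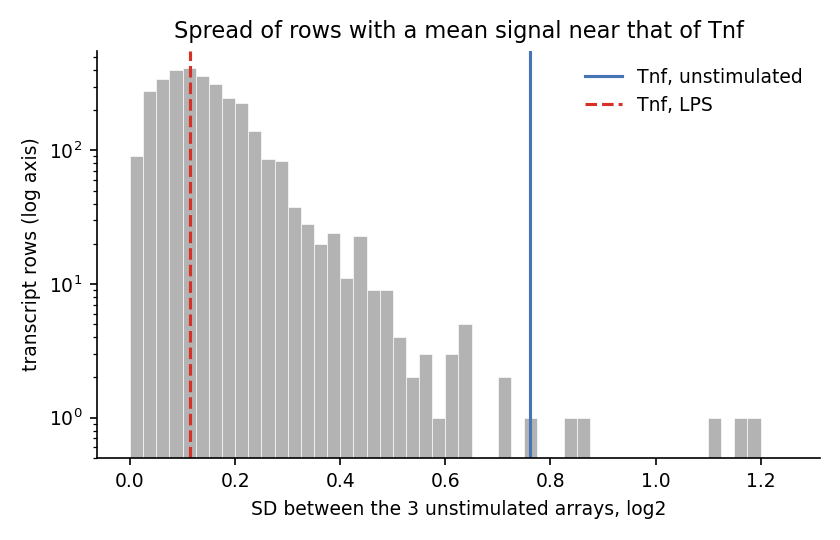
Number of transcript rows (vertical log axis) by their SD between the 3 unstimulated arrays (horizontal axis, log2 units), for the 3168 rows with a mean signal within 0.5 of that of Tnf. The solid line marks the unstimulated SD of Tnf at 0.76, which 5 of these rows exceed, and the dashed line its LPS SD at 0.11.

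Unstimulated array 1 stood apart from the other 2 in other rows as well. It lay more than 0.5 below both of them in 414 rows. In 110 of these (26.6%), the LPS mean was at least 2-fold above the mean of unstimulated arrays 2 and 3, against 2.95% of all rows by the same measure. The measure leaves out unstimulated array 1, although the low value of that array chose the rows. The LPS mean keeps LPS array 1, which correlated with unstimulated array 1 at 0.50 across rows after subtraction of group means. The 2.95% covers all rows, and rows of like spread were not taken for comparison. Array 2 lay that far below both others in 145 rows, of which 7 (4.83%) were at least 2-fold higher with LPS. For array 3 the corresponding counts were 46 and 1. Array 1 lay more than 0.5 above both others in 186 rows, of which 19 (10.2%) were at least 2-fold higher with LPS. Array 2 lay that far above both others in 263 rows, with 24 (9.13%) higher, and array 3 in 37 rows, with 24 (64.9%) higher. A large share of LPS-raised rows was therefore not limited to rows low in array 1. Rows at least 2-fold lower with LPS, by the same measure, numbered 52, 50 and 14 among those low in arrays 1, 2 and 3. Among those high in arrays 1, 2 and 3 they numbered 74, 8 and 2. They outnumbered the raised rows among those low in array 2, low in array 3 and high in array 1. The share of all rows lower by this measure was not counted, so whether these counts of lowered rows differ from the background cannot be told. By the different measure of group means with a limma call, 2183 of all rows were at least 2-fold lower with LPS and 2222 at least 2-fold higher. With a margin of 1 the rows low in array 1 numbered 21, Tnf among them, and 10 of the 21 were at least 2-fold higher with LPS. Of the 8 rows high in array 1 by that margin, 5 were at least 2-fold higher with LPS. Rows can share a gene, both margins were set after the Tnf values were seen, and no test was made of these counts. Among the 263 rows at least 8-fold higher with LPS, array 1 was the lowest unstimulated array in 47.5%, against 34.6% of all rows, but the array 1 value enters the choice of these rows and favours that outcome.

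Likeness to the pattern of Tnf was measured as the Euclidean distance between the 6 log2 values, each row taken as deviations from its own mean. The 5 most alike rows with distinct values lay at distances from 0.451 to 0.581. All 5 had their lowest unstimulated value in array 1, by a gap between 0.60 and 1.90, as in Tnf, whose pattern chose them. Their differences between LPS and unstimulated arrays ran from 3.50 to 3.89, or 11.3-fold to 14.8-fold. The nearest was ENSMUST00000000194_at, with unstimulated values of 7.49, 8.95 and 8.91 and LPS values of 12.2, 12.3 and 12.4, and it shares all its values with 1 other row. The second was ENSMUST00000021011_at, with unstimulated values of 8.31, 10.2 and 10.3 and LPS values of 13.1, 13.3 and 13.1. In the latter the gap below unstimulated arrays 2 and 3 was wider than in Tnf, and the LPS arrays were as close together. Since the 5 were chosen for this pattern, their values are a description and no test is given. Ranked by Pearson's correlation over the 6 arrays instead, which ignores the size of the change, 1 of the 5 stayed among the first 5.

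**Figure D4:**
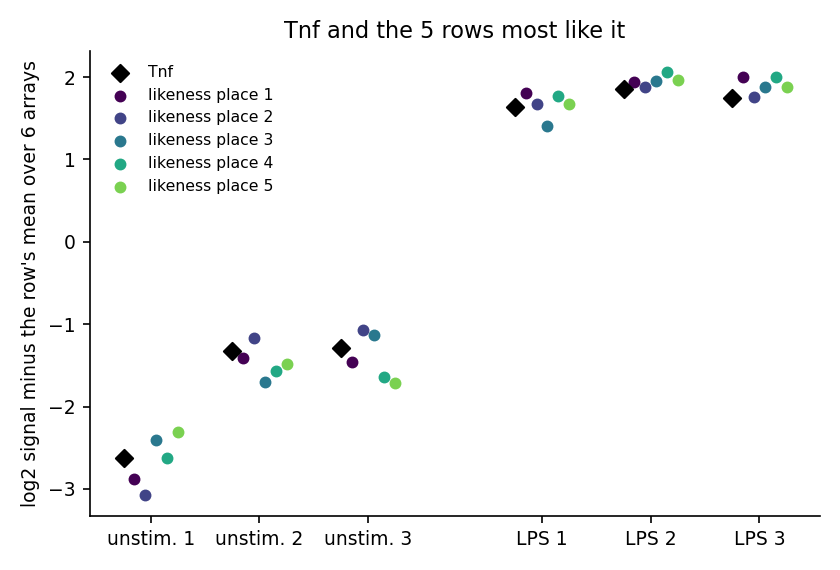
Log2 signal minus the row's own mean over 6 arrays (vertical axis) on each array (horizontal axis), for Tnf (black diamonds) and the 5 rows most like it (coloured points, in order of likeness). In every row unstimulated array 1 is the lowest point. The SD between LPS arrays is 0.11 in Tnf and runs from 0.101 to 0.295 in the 5 rows.

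The Tnf call held under all 17 alternative settings run, with differences from 3.05 to 3.72 and limma adjusted p-values from 2.02e-05 to 0.00898. The settings cover the pairing of arrays, the scaling, an offset, a filter on dim rows, the variance prior, the removal of repeated rows, a 2-fold null, and the removal of each array. The pairing, filter, variance prior, removal of repeated rows and 2-fold null leave the difference at 3.49 by construction. They bear only on the p-value. Both ends of the range of differences came from leaving out an unstimulated array: array 1 gave the smallest value and array 3 the largest.

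**Figure D5:**
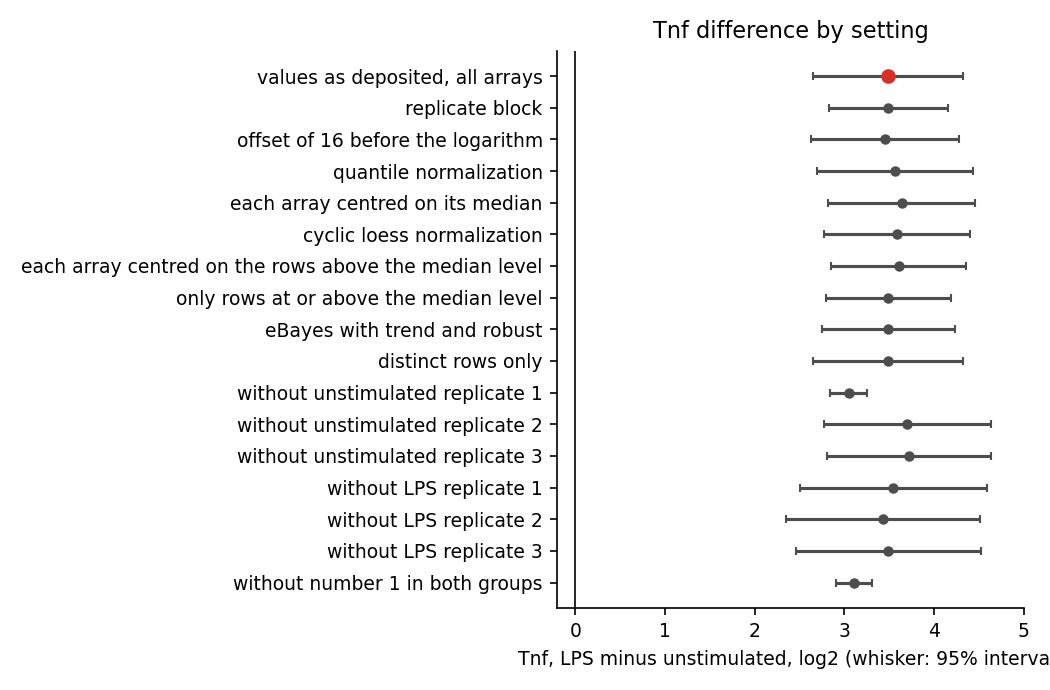
Log2 difference of Tnf between LPS and unstimulated arrays (horizontal axis, point) with its 95% limma interval (whisker) under each setting that gives an interval, with the values as deposited in red. Every interval lies above 0, and those without unstimulated array 1 are the narrowest.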

How the data were processed

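The authors deposited log2 values, a single value for each transcript-level probe set on each array, according to the series text. PLIER and Affymetrix Power Tools are listed, with no version, in the submitters' processing notes. How arrays were normalized, which genome build and probe-set annotation were used and where detection begins is not given in the sources used here. All 74007 identifiers are Ensembl transcripts. The gene table held 0 such identifiers, so the 17 lists of pathway and marker genes were not tested. The log2 values were used as deposited. limma 3.58.1 in R 4.3.3 (lmFit and eBayes) was fitted to all rows and 6 arrays, without a block, two-sided, and p-values were adjusted by Benjamini-Hochberg over all rows, with calls at 0.05. The script was tested on simulated data, by the recovery of added changes. The simulation had the same spread in both groups, no array standing apart and no pairing, so it did not test these features of the data. Samples were grouped by title. The series text states that groups were paired by animal. After subtraction of the group mean, arrays with the same number correlated across rows at 0.50, 0.30 and 0.12. Arrays with different numbers correlated from -0.48 to 0.21. The highest of these, unstimulated array 2 with LPS array 3, exceeded the value for number 3. Same-numbered arrays were treated as pairs in the blocked alternative. By the rule used, the text names Tnf and the first 2 of the 5 rows most like it. The member, lists and tests were chosen with earlier results of these data known. Only 3 arrays per group limit the precision.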

Additional observations from a re-analysis of the deposited data

How the results depend on the processing

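Tnf kept its direction and its call in all 17 alternatives, of which 16 were planned and the omission of both arrays of number 1 (a difference of 3.11) was added after the data were seen. The direction could not reverse on leaving out arrays, because the groups did not overlap. With the replicate number as a block the Tnf difference was 3.49 (limma adjusted p = 0.00102), and the block changed no call of Tnf and no count by more than 1.5 times. Leaving out each array in turn gave Tnf differences from 3.05 to 3.72. The place of Tnf among the rises lay between 125 and 245 in these omissions. Counts over all rows depended on scaling: 23667 rows were called as deposited and 35595 with each array centred on its median. Rows called higher numbered 6472 as deposited. They numbered 23708 when arrays were centred on their medians and 11466 when centred on the rows above the median level. Cyclic loess gave 10499 of them and quantile normalization 9768. The cause was not tested. The pathway lists were not run under any setting, for want of row names. Without a detection level, depth of signal sets a limit on the unstimulated value of Tnf that cannot be stated.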
